A study of Mus musculus with 36 samples.

Results

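The miR-29 family of microRNAs was followed through small RNA libraries of the mouse prostate. Its 3 members, mmu-miR-29a-3p, mmu-miR-29b-3p and mmu-miR-29c-3p (written below without the species prefix), were taken by name from tables that listed 1963 miRNAs, and all 3 were found. The libraries came from the ventral and lateral prostate lobes of male mice that carried wild-type Elac2 (WT), a deletion of Elac2 driven by Pb-Cre (KO), or a point mutation that exchanges an alanine of the protein for threonine (A537T), each homozygous. The product of Elac2 is a ribonuclease that trims precursor transfer RNAs at their 3′ end. Pb-Cre acts in prostate epithelium, so the deletion does not reach the stroma, whereas A537T is carried by every cell. Mice of the WT-TRAMP, of the KO-TRAMP and of the A537T-TRAMP groups were also heterozygous for the TRAMP transgene, in which the probasin promoter drives SV40 T antigens in the prostate epithelium and tumours arise with age. All mice were on the strain given in the labels as C56NL/6N and were littermate-matched and 10 or 30 weeks old. This gave 12 groups of 3 libraries, 36 in all, and whether the WT mice carried Cre was not given in the sources used here.

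MicroRNAs bind messenger RNAs mainly through bases 2 to 8 of the mature strand, the seed, and lower the protein made from them. The miR-29 family is known above all for messenger RNAs of collagens, elastin, fibrillin and other proteins of the extracellular matrix, and is low in many fibrotic tissues and tumours. In the mouse it is made from 4 precursors in 2 clusters, and each precursor gives a 3p strand, which carries the family's seed, and an opposite 5p strand with another seed.

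The mature sequences of the 3 members are shown because they set what a count of each can mean. All 3 names matched the RefSeq table of GRCm38.p6, and the seed, bases 2 to 8, is in capitals.
miR-29a-3p: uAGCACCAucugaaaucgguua
miR-29b-3p: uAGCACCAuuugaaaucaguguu
miR-29c-3p: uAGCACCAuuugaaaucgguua
The seed was the same in the 3 members, and no other mature miRNA of the 1679 names in the RefSeq table carried it. Counted from 1 at the 5′ end, miR-29a-3p differed from miR-29c-3p only by C10U, outside the seed. From miR-29c-3p to miR-29b-3p the differences over 22 aligned bases were G18A, U21G and A22U.

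The precursors lie in pairs. On the minus strand of chromosome 6 (GRCm38), Mir29a runs from 31062660 to 31062747 and Mir29b-1 from 31063023 to 31063093, with 275 bases between them. The plus strand of chromosome 1 holds Mir29b-2 from 195037040 to 195037120 and Mir29c from 195037547 to 195037634, with 426 bases between them. In GENCODE vM21 the chromosome 1 pair lies inside an exon of the noncoding transcript A330023F24Rik on the same strand, and inside an exon of Cd46 on the opposite strand. Mir29b-1 overlaps the 3′ end of the lincRNA Gm27019, and no other annotated gene overlaps Mir29a. Both Mir29b precursors give the same mature 3p strand, so miR-29b-3p cannot be assigned to one cluster. Their 5p strands differ and can be told apart, and they are printed for that reason.
miR-29b-1-5p: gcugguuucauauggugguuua
miR-29b-2-5p: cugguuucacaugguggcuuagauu

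A single kind of match to the seed is shown for genes of the matrix. The letters TGGTGCTA, the complement of the seed followed by an A, were searched on the coding strand of the longest 3′ UTR that GENCODE vM21 gives each protein-coding gene. Of 21020 genes, 599 held the letters, or 2.85%, with a median 3′ UTR of 961 bases. Among 13 matrix genes picked from textbook knowledge after the tables were at hand, 9 held them, namely Col1a1, Col3a1, Col4a1, Col5a1, Col5a2, Col6a3, Eln, Fbn1 and Lamc1, while Col1a2, Col4a2, Sparc and Fn1 did not. Matches to the seed that lack the final A were not searched, so genes without these letters may still match the seed. The 13 genes were picked because matrix proteins are known targets of the family, so the count is a description only. Stretches around 4 of these matches are shown, with the match in capitals, from a pair of fibrillar collagens and a pair of elastic fibre proteins.
Col1a1: gaaggaatttcTGGTGCTAtagaagctgag
Col3a1: aaatgtctcaaTGGTGCTAtaataaataaa
Eln: ctcatcaacgtTGGTGCTActgcttggtgg
Fbn1: tgttgtctgttTGGTGCTAgtaaattctca
The messenger RNAs of these genes are not measured in the miRNA tables, and a match of letters is not evidence of binding.

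Values are RPM, the reads of a miRNA per 1000000 miRNA reads of its library, and so give a share of the miRNA reads rather than an amount per cell. In tissue libraries, fewer cells of a type and less RNA per cell cannot be told apart. The depth was 655455 to 21870210 miRNA reads per library. The shallowest was library 35 of A537T at 10 weeks, and the next held 4544257 reads. In library 35 miR-29c-3p rested on 82 reads, with a 95% Wilson interval of 100.8 to 155 RPM around 125 RPM, which covers counting error only. Libraries are named by the number in their column, since the columns carry no replicate number, and their groups rest on the names of the tables that hold them. The RNA of the targeted gene was not measured in these tables and checks no label.

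The family took 0.605% to 2.21% of all miRNA reads. miR-29a-3p was by far the most abundant member and ranked 18 among all miRNAs by its mean, with miR-29b-3p at 117 and miR-29c-3p at 161. Within the family, miR-29a-3p took 95.8% to 98.1% of the reads, miR-29b-3p 1.33% to 3.41% and miR-29c-3p 0.460% to 1.56%. miR-29a-3p and miR-29c-3p differ by 1 base, so their counts are uncertain as far as read errors move reads from one to the other, which was not tested. The ratio of miR-29a-3p to miR-29c-3p was not constant and ran from 62.0 to 212 over the libraries.

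At 10 weeks without TRAMP, miR-29a-3p was at a like level in all 3 lines. In WT the libraries held 11902, 10930 and 7146 RPM, in KO 10500, 10995 and 10108 RPM. In A537T they held 10529, 10378 and 8827 RPM. The groups overlapped, and the lowest of the 9 was library 30 of WT.

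With TRAMP at 10 weeks the values were 8796, 9014 and 9418 RPM in WT-TRAMP. KO-TRAMP libraries held 7406, 9497 and 6199 RPM, and those of A537T-TRAMP held 6569, 6948 and 8961 RPM. Of these 9 libraries, 3 lay below every library without TRAMP at this age, and none lay above them all. Such counts, here and below, are descriptions, as the share of all miRNAs that separated as far was not counted.

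At 30 weeks the same strand was much higher without TRAMP, at 17609, 19274 and 19036 RPM in WT. KO held 12709, 15627 and 13984 RPM, and A537T held 15968, 21593 and 11311 RPM. The 3 A537T libraries were the most scattered, with an SD of 5149 RPM around a mean of 16291 RPM (n = 3). Of the 9 libraries, 8 lay above all 9 of the same lines at 10 weeks.

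On the TRAMP background the WT and KO lines showed no such rise. WT-TRAMP at 30 weeks held 8446, 9418 and 9059 RPM, KO-TRAMP held 10152, 5797 and 6997 RPM. A537T-TRAMP held 11821, 13599 and 10124 RPM. Of these 9 libraries, 7 lay below every library without TRAMP at 30 weeks, and the other 2 were both A537T-TRAMP.

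miR-29b-3p was lower throughout and followed a similar order. At 10 weeks the libraries held 209, 181 and 97.0 RPM in WT, 217, 229 and 195 RPM in KO, and 176, 200 and 159 RPM in A537T. With TRAMP they held 167, 156 and 189 RPM in WT-TRAMP, 146, 230 and 126 RPM in KO-TRAMP, and 141, 138 and 249 RPM in A537T-TRAMP. No TRAMP library lay below all 9 without TRAMP at this age, and 2 lay above them all.

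At 30 weeks miR-29b-3p stood at 321, 363 and 339 RPM in WT, at 260, 302 and 265 RPM in KO and at 335, 345 and 249 RPM in A537T. All 9 of these libraries lay above all 9 at 10 weeks without TRAMP. On the TRAMP background the 30-week libraries held 207, 207 and 203 RPM in WT-TRAMP, 241, 207 and 224 RPM in KO-TRAMP, and 275, 280 and 223 RPM in A537T-TRAMP. Of these, 7 lay below every library without TRAMP at 30 weeks.

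miR-29c-3p, the rarest member, was the most variable. At 10 weeks it was 186, 104 and 37.8 RPM in WT, 161, 177 and 148 RPM in KO, and 108, 125 and 85.3 RPM in A537T. The 3 KO libraries lay close together, while WT spread over the whole range. With TRAMP it was 78.8, 70.6 and 70.1 RPM in WT-TRAMP, 45.0, 99.0 and 40.6 RPM in KO-TRAMP, and 45.2, 66.2 and 96.7 RPM in A537T-TRAMP.

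At 30 weeks miR-29c-3p was 100.5, 203 and 155 RPM in WT, 152, 73.7 and 138 RPM in KO, and 168, 189 and 105 RPM in A537T. The TRAMP libraries of that age held 88.8, 64.5 and 75.6 RPM in WT-TRAMP, 76.5, 48.8 and 58.4 RPM in KO-TRAMP, and 114, 121 and 76.7 RPM in A537T-TRAMP. The classes overlapped, with 3 of 9 TRAMP libraries below every library of 30 weeks without TRAMP.

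**Figure D1:**
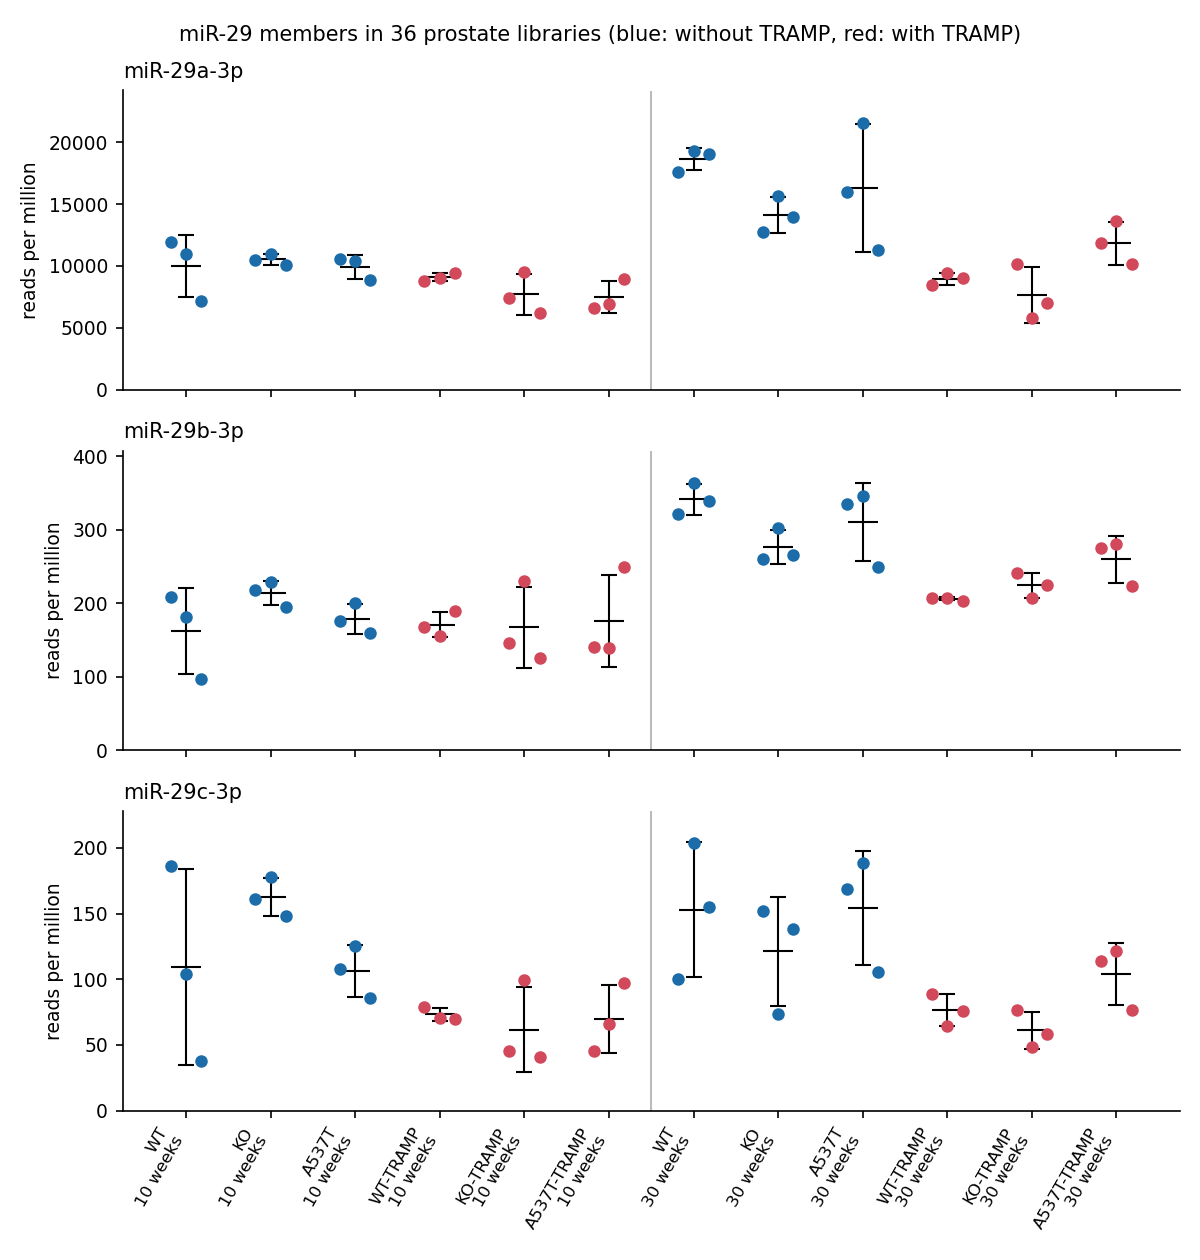
RPM of each member (linear vertical axis) in the 12 groups, with 1 point a library and bars for the mean and SD of 3 libraries. At 30 weeks the 9 libraries without TRAMP (blue) ran from 11311 to 21593 RPM for miR-29a-3p, against 5797 to 13599 RPM with TRAMP (red).

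Ordered by group means, miR-29a-3p fell 2.49-fold from WT at 30 weeks, at 18640 ± 900.4 RPM (SD, n = 3), to A537T-TRAMP at 10 weeks, at 7493 ± 1286 RPM. All 11 pairs of neighbours in this order had overlapping libraries, so single steps were not beyond the spread. miR-29b-3p spanned 2.10-fold, from 341 ± 21.3 RPM in WT at 30 weeks to 162 ± 58.1 RPM in WT at 10 weeks, and 10 of 11 neighbours overlapped. The exception was WT-TRAMP at 30 weeks, at 206 ± 2.26 RPM, above A537T at 10 weeks, at 178 ± 20.5 RPM. miR-29c-3p spanned 2.65-fold, from 162 ± 14.5 RPM in KO at 10 weeks to 61.2 ± 14.1 RPM in KO-TRAMP at 30 weeks, with all 11 neighbours overlapping.

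The first comparison asked how the family differed with the transgene, averaged over the 3 lines. The test was limma on log2(RPM + 1), with adjusted p-values over the 298 miRNAs with a mean of at least 10 RPM, and a call was an adjusted p under 0.05. At 10 weeks 2 of the 3 members were called, both lower with TRAMP, while 71.1% of all tested miRNAs were called in either direction and 41.9% were lower. A share of called members like this one is near the background and is no result about the family as a group. Nor are these the samples' absolute amounts, as the median of all 298 miRNAs was -0.23 on the log2 scale, a shift that moved to -0.03 with median-of-ratios scaling.

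At 10 weeks miR-29c-3p averaged 68.0 ± 21.6 RPM with TRAMP and 126 ± 47.8 RPM without (SD, n = 9). On the log2 scale this was -0.82 ± 0.24 (SE; limma, adjusted p = 0.0034). miR-29a-3p averaged 8090 ± 1300 RPM against 10146 ± 1391 RPM, a log2 fold change of -0.33 ± 0.12 with a limma adjusted p of 0.0178. The call of miR-29a-3p was lost with median-of-ratios scaling, at -0.13 with adjusted p = 0.296 in limma, and with TMM scaling, at -0.20 with adjusted p = 0.0998. miR-29b-3p gave -0.11 ± 0.13 with a limma adjusted p of 0.475, a sign that turned under both of those scalings, and its 95% interval was -0.38 to 0.17.

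At 30 weeks all 3 members fell with TRAMP, where 46.3% of tested miRNAs were called and 19.5% were lower. The median of all miRNAs was 0.02 here, and -0.11 with median-of-ratios scaling. miR-29a-3p averaged 9490 ± 2353 RPM with TRAMP and 16346 ± 3350 RPM without, a log2 fold change of -0.80 ± 0.12 with a limma adjusted p of 3.8e-06. This corresponded to 0.575 of the level without TRAMP. miR-29c-3p gave -0.81 ± 0.24 with a limma adjusted p of 0.0061, from 143 ± 42.8 to 80.5 ± 24.1 RPM. miR-29b-3p changed least, from 309 ± 41.8 to 230 ± 29.7 RPM, with a log2 fold change of -0.42 ± 0.13 and a limma adjusted p of 0.0118. Without the WT lines, in an alternative added after the data were seen, miR-29b-3p lost its call, at -0.27 with adjusted p = 0.202 in limma.

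The direction of calls over all miRNAs depended on the scaling. Higher with TRAMP were 58.0% of the 138 called miRNAs at 30 weeks, against 43.2% of 146 with median-of-ratios and 47.6% of 143 with TMM scaling. At 10 weeks the share was 41.0% of 212, and 51.0% of 200 with that scaling. Each of the 3 members was lower with TRAMP at 30 weeks under all 28 alternatives, with log2 fold changes from -0.93 to -0.67 for miR-29a-3p, from -0.55 to -0.27 for miR-29b-3p and from -0.94 to -0.73 for miR-29c-3p.

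**Figure D2:**
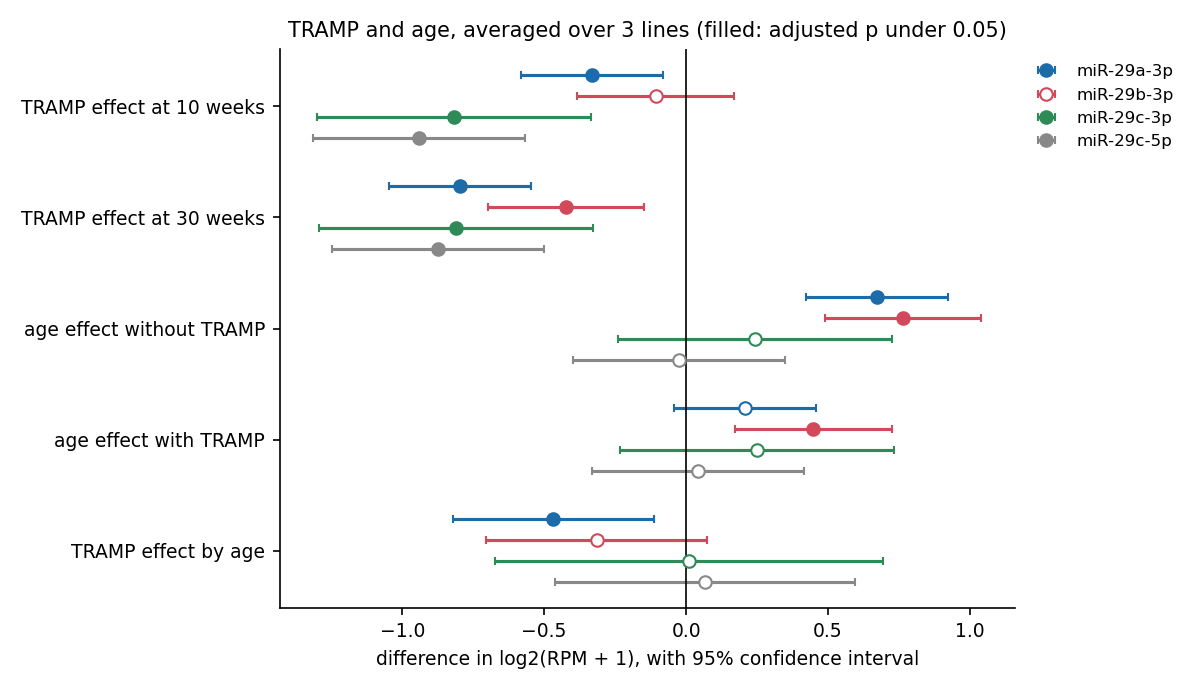
Differences in log2(RPM + 1) averaged over the WT, KO and A537T lines for the 3 members and miR-29c-5p, with 95% confidence intervals from limma; filled points passed an adjusted p of 0.05. At 30 weeks the 3 members sat at -0.80, -0.42 and -0.81 with TRAMP, and only miR-29a-3p passed for the change of the TRAMP effect with age.

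The second comparison asked how the family differed with age. Without TRAMP, 2 of 3 members rose from 10 to 30 weeks, where 37.2% of tested miRNAs were called and 16.8% were higher. miR-29b-3p rose 1.70-fold, a log2 value of 0.76 ± 0.13 (limma, adjusted p = 5.1e-05), and miR-29a-3p rose 1.59-fold, a log2 value of 0.67 ± 0.12 (limma, adjusted p = 7.0e-05). Both passed in all 28 alternatives, but their size varied, from 0.58 to 0.96 for miR-29b-3p and from 0.52 to 0.87 for miR-29a-3p. The highest values came with median-of-ratios scaling. Without skeletal muscle miRNAs in the totals the values were 0.61 and 0.52, and without the WT lines 0.58 and 0.54. miR-29c-3p gave 0.24 ± 0.24 with a limma adjusted p of 0.434 and an interval of -0.24 to 0.72, which holds the value of miR-29a-3p and ends below that of miR-29b-3p. This value moved with the scaling and with single libraries. Under median-of-ratios scaling it was 0.44 and passed, with a limma adjusted p of 0.0392, while without skeletal muscle miRNAs in the totals it was 0.0849 and without the WT lines 0.0141, neither past the threshold. It was 0.035 without library 30 of WT and 0.41 without library 28 of WT, again with no call. Median-of-ratios scaling also moved the median of all miRNAs from -0.04 to 0.15, and the share of calls that were higher from 45.0% of 111 to 63.2% of 152. With skeletal muscle miRNAs left out of the totals the median was -0.19, and 25 of 119 calls were higher.

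With TRAMP, only miR-29b-3p rose with age, by 0.45 ± 0.13 with a limma adjusted p of 0.0182, where 29.2% of tested miRNAs were called and 21.1% were higher. It averaged 171 ± 42.9 RPM at 10 weeks and 230 ± 29.7 RPM at 30 weeks. miR-29a-3p gave 0.21 ± 0.12 with a limma adjusted p of 0.185, and miR-29c-3p gave 0.25 ± 0.24 with a limma adjusted p of 0.431. As reported, 72.4% of the 87 calls in this comparison were higher, against 47.6% of 82 under median-of-ratios and 48.2% of 83 under TMM scaling. The median of all miRNAs went from 0.09 to -0.04 with the former.

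Whether the TRAMP difference itself changed with age was tested directly. miR-29a-3p passed, with a log2 difference of -0.47 ± 0.17 and a limma adjusted p of 0.0323, the TRAMP libraries lying further below at 30 than at 10 weeks. In this test 41.6% of miRNAs were called, with 12.4% lower. miR-29b-3p gave -0.32 ± 0.19 with a limma adjusted p of 0.190 and miR-29c-3p gave 0.01 ± 0.33 with a limma adjusted p of 0.988, an interval of -0.67 to 0.69. In single lines the TRAMP value of miR-29a-3p went from -0.11 at 10 weeks to -1.05 at 30 weeks in WT. In KO it went from -0.47 to -0.92, and in A537T from -0.41 to -0.42. The change with age within a line was not tested. The call of miR-29a-3p averaged over the lines was not stable. It was lost when the skeletal muscle miRNAs were left out of the totals, at -0.31 with adjusted p = 0.117, without the WT lines, at -0.23 with adjusted p = 0.402, and without any 1 of 7 libraries, at -0.44 to -0.39 with adjusted p from 0.0508 to 0.0593 (limma throughout). Those were library 30 of WT, 36 of A537T, 8 of KO-TRAMP and 6 of A537T-TRAMP at 10 weeks, and 26 of A537T, 17 of KO-TRAMP and 15 of A537T-TRAMP at 30 weeks. Under median-of-ratios scaling miR-29b-3p passed as well, at -0.64 with adjusted p = 0.00161 in limma. The share of all calls that were positive was 70.2% of 124 as reported, 40.8% of 130 with median-of-ratios scaling, 50.8% of 120 with TMM scaling and 83.8% of 136 without skeletal muscle miRNAs in the totals. The median of all miRNAs in this test was 0.22, and -0.10 with median-of-ratios scaling. These comparisons share libraries, since those of 30 weeks without TRAMP enter both the TRAMP and the age comparison.

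**Figure D3:**
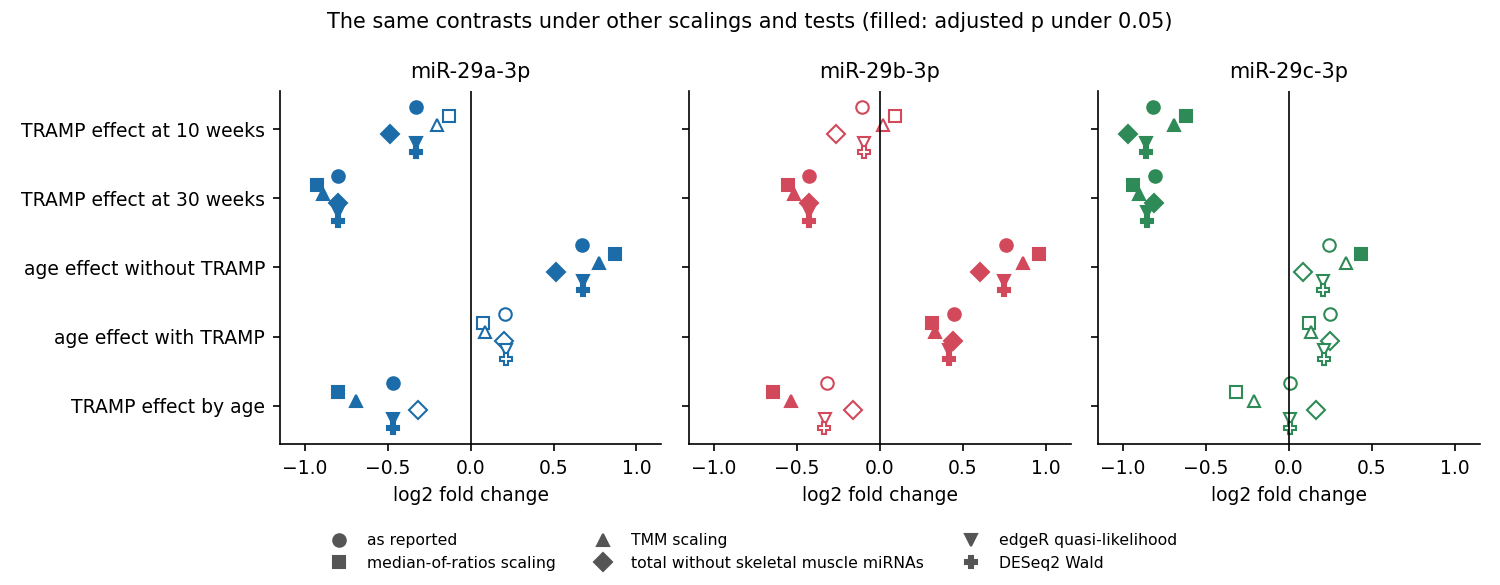
Log2 fold changes of the 5 averaged comparisons as reported and under 3 other scalings and 2 count models; filled points passed an adjusted p of 0.05. At 10 weeks the TRAMP value of miR-29a-3p ran from -0.49 to -0.13 over the scalings, while at 30 weeks all points of the 3 members were filled and below 0.

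Within single lines 9 of 36 tests of a member passed. In WT at 30 weeks miR-29a-3p fell with TRAMP by 1.05 on the log2 scale (limma adjusted p = 0.000324), where 33.6% of miRNAs were called, and miR-29b-3p fell by 0.72 (limma adjusted p = 0.0177). The latter call was lost without library 20 of WT, at -0.68 with a limma adjusted p of 0.0617. In KO, where 36.2% were called, miR-29a-3p fell by 0.92 at 30 weeks (limma adjusted p = 0.00126). In A537T at 30 weeks, where 15.1% were called, no member passed. There miR-29a-3p gave -0.42, and it passed with median-of-ratios at -0.54, with TMM at -0.54 and without library 27 of A537T at -0.66 (limma adjusted p = 0.0486, 0.0429 and 0.0389). With both of these scalings miR-29c-3p also passed in WT and KO at 30 weeks, at -1.23 to -0.84, and miR-29b-3p in KO, at -0.60 and -0.56. miR-29c-3p passed there without library 19 of WT, at -1.22 in WT, and without library 23 of KO, at -1.25 in KO. At 10 weeks 1 member passed in 1 line, as miR-29c-3p fell by 1.498 in KO (limma adjusted p = 0.00472), with 47.7% called. In WT and A537T at 10 weeks no member passed, where 40.9% and 39.3% were called. Without skeletal muscle miRNAs in the totals miR-29a-3p passed in KO at -0.49 and in A537T at -0.54, and without library 8 of KO-TRAMP miR-29a-3p and miR-29b-3p passed in KO, at -0.64 and -0.65.

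With age, miR-29a-3p rose by 0.93 and miR-29b-3p by 1.14 in WT (limma adjusted p = 0.00271 and 0.00107), where 13.1% of miRNAs were called. In A537T miR-29a-3p rose by 0.67 and miR-29b-3p by 0.79 (limma adjusted p = 0.0271 and 0.0198), where 18.1% were called. Both WT calls were lost when only the 6 libraries of the comparison were fitted, with limma adjusted p = 0.0581 and 0.0990. In A537T the call of miR-29a-3p was lost without library 25, 26, 35 or 36, at 0.44 to 0.71, and that of miR-29b-3p without library 25, 26 or 36, at 0.70 to 0.72. The A537T call of miR-29a-3p was also lost without skeletal muscle miRNAs in the totals, at 0.55 with a limma adjusted p of 0.0606. With no filter and with only the 6 libraries of the comparison it was lost too (limma adjusted p = 0.0667 and 0.130). That of miR-29b-3p was also lost with no filter (limma adjusted p = 0.0541).

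No member passed with age in KO (15.4% called), WT-TRAMP (8.72%) or KO-TRAMP (18.1%). In KO this depended on the scaling. miR-29a-3p, at 0.42 as reported, passed with median-of-ratios at 0.87 and with TMM at 0.68 (limma adjusted p = 0.0031 and 0.0122). miR-29b-3p, at 0.37 as reported, passed at 0.82 and 0.63 (limma adjusted p = 0.00308 and 0.0202). Single libraries decided other values, as without library 28 of WT miR-29c-3p passed in WT at 1.21, without library 8 miR-29b-3p passed in KO-TRAMP at 0.72, and without library 6 it passed in A537T-TRAMP at 0.88. In A537T-TRAMP miR-29a-3p rose by 0.66 (limma adjusted p = 0.0467), with 8.72% called. That call was lost without library 4, 5, 13 or 14, at 0.56 to 0.66, and with 5 of the other settings. Whether the age difference depended on the mutation was tested for each line, and no member passed.

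The study was designed to compare each mutant line with its control. No member passed in any of the 8 comparisons, 24 tests in all. Calls over all miRNAs were few by limma, 17 (5.70%) for KO at 10 weeks, 3 (1.01%) for KO at 30 weeks, 12 (4.03%) for KO-TRAMP at 30 weeks and 0 in the other 5. In those 5, between 15 and 35 miRNAs had an unadjusted p under 0.05. For A537T at 30 weeks DESeq2 called 8, and in the other 4 neither edgeR nor DESeq2 called any. The counts moved with single libraries. For KO at 10 weeks there were 78 without library 28 of WT and 4 without library 33 of KO. For KO at 30 weeks there were 31 without library 19 of WT and 0 without library 22 of KO, and for KO-TRAMP there were 62 without library 16 and 1 without library 18, both of KO-TRAMP. KO and A537T share their WT libraries.

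At 10 weeks KO was higher than WT in miR-29c-3p by 0.83 ± 0.41 and in miR-29b-3p by 0.47 ± 0.23, both with a limma adjusted p of 0.196. Both values rested on the scattered WT libraries. Without library 28 of WT they were 1.35 (adjusted p = 0.0185) and 0.68 (adjusted p = 0.0420), and without library 30 of WT they were 0.22 and 0.13 (limma). miR-29a-3p gave 0.11 in KO and 0.02 in A537T at this age, and both signs turned under 3 other scalings and without library 30.

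At 30 weeks miR-29a-3p was 14107 ± 1463 RPM in KO and 18640 ± 900.4 RPM in WT (n = 3 each), with the highest KO library, at 15627 RPM, below the lowest WT library, at 17609 RPM. On the log2 scale KO lay at -0.41 ± 0.21 (limma, adjusted p = 0.329). A537T-TRAMP gave the opposite sign against WT-TRAMP, with 11848 ± 1737 RPM against 8974 ± 491.9 RPM and no overlap. On the log2 scale this was 0.39 ± 0.21 with a limma adjusted p of 0.644. Neither difference of miR-29a-3p passed, and the share of all miRNAs without overlap in these comparisons was not counted. For A537T-TRAMP against WT-TRAMP, miR-29b-3p and miR-29c-3p also had positive values, of 0.32 and 0.43, and neither passed. KO-TRAMP at 30 weeks gave -0.27, 0.12 and -0.33 for miR-29a-3p, miR-29b-3p and miR-29c-3p, the second of which turned under TMM scaling. Without library 16 of KO-TRAMP these values were -0.49, 0.0626 and -0.496, and without library 17 of KO-TRAMP they were -0.0892, 0.17 and -0.18.

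The 8 tests of whether a mutation's difference depended on TRAMP or on age called no member, 24 values in all. In limma 1 of these tests, of KO by TRAMP at 30 weeks, called 8.72% of all miRNAs. The other 7 called 0, with 11 to 62 miRNAs at an unadjusted p under 0.05, while edgeR called up to 7 and DESeq2 up to 21 in the KO tests among them and 0 in the A537T tests. Without library 28 of WT, 3 values passed. These were miR-29c-3p in KO by TRAMP at 10 weeks, at -1.71, and miR-29b-3p and miR-29c-3p in KO by age without TRAMP, at -0.99 and -1.69 (limma adjusted p from 0.0393 to 0.0431). With 3 libraries a group the intervals were wide, such as -0.41 to 0.45 for miR-29a-3p and -0.63 to 1.05 for miR-29c-3p in A537T at 10 weeks. Differences within such bounds were therefore not excluded.

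**Figure D4:**
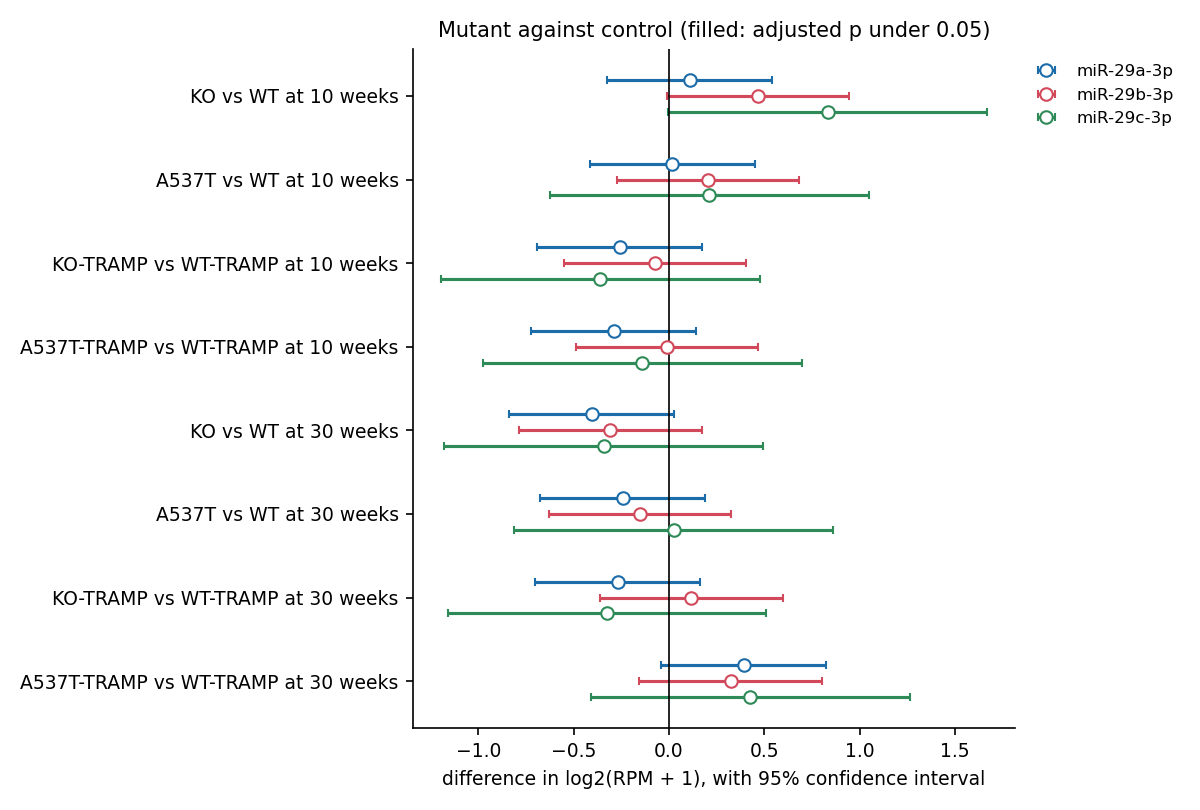
Mutant minus control in log2(RPM + 1) for the 3 members in the 8 comparisons, with 95% confidence intervals from limma; open points did not pass an adjusted p of 0.05. No point is filled, and the intervals of miR-29c-3p are the widest.

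The opposite strands of the precursors were far below miR-29a-3p. miR-29c-5p, the partner of miR-29c-3p, was the only one with a mean over 10 RPM. It averaged 40.2 ± 11.2 RPM with TRAMP and 78.5 ± 19.9 RPM without at 10 weeks, and 41.1 ± 8.99 against 77.5 ± 23.8 RPM at 30 weeks (n = 9). The log2 fold changes were -0.94 ± 0.18 (limma adjusted p = 6.5e-05) and -0.87 ± 0.18 (limma adjusted p = 0.000236). Like miR-29c-3p it gave no call with age, at -0.02 without TRAMP and 0.04 with TRAMP. The ratio of miR-29c-3p to miR-29c-5p had class medians from 1.42 to 1.84, but lines differed within a class. At 30 weeks it was 2.87, 2.26 and 2.25 in A537T and 3.10, 2.38 and 2.07 in A537T-TRAMP. The highest WT or KO library of that age, with or without TRAMP, had 1.93. At 10 weeks A537T, at 1.37 to 1.42, lay within the WT range of 1.05 to 1.79. For A537T against WT at 30 weeks miR-29c-5p gave -0.61 (limma adjusted p = 0.399) and miR-29c-3p 0.03. The ratio itself was not tested.

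The 5p strands of miR-29b separated its precursors, at few reads. miR-29b-2-5p, from the chromosome 1 pair, had 3.38, 5.32 and 7.26 RPM as the lowest, median and highest of the 9 TRAMP libraries at 10 weeks, and 7.99, 10.1 and 16.8 RPM without. At 30 weeks the TRAMP libraries ran from 4.86 through 5.44 to 8.77 RPM, against 10.3, 13.1 and 20.5 RPM without. At both ages all 9 TRAMP libraries lay below all 9 without. The share of all miRNAs that separated as fully was not counted, so this is a description only. A fit with no filter on low values called 25.7% and 17.3% of 1574 miRNAs with TRAMP at 10 and 30 weeks. Among the 298 miRNAs with a mean of at least 10 RPM the shares in the main fit were 71.1% and 46.3%. Without the filter the log2(RPM + 1) fold changes of miR-29b-2-5p were -0.85 ± 0.13 (limma adjusted p = 1.1e-05) and -1.17 ± 0.13 (limma adjusted p = 7.8e-08).

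miR-29b-1-5p, from the chromosome 6 pair, was not lower with TRAMP at 10 weeks. Its lowest, median and highest values were 2.501, 3.38 and 5.28 RPM with TRAMP at 10 weeks and 1.46, 2.28 and 3.79 RPM without. At 30 weeks they were 2.60, 3.42 and 5.28 RPM with TRAMP and 2.84, 4.34 and 5.57 RPM without. In the fit with no filter it was higher with TRAMP at 10 weeks, by 0.40 ± 0.13 averaged over the lines (limma adjusted p = 0.0178). Group means at that age were 4.39 RPM in WT-TRAMP against 2.49 in WT and 3.33 in A537T-TRAMP against 1.89 in A537T. KO showed no such rise, at 2.78 RPM in KO-TRAMP against 2.89 in KO. In the same fit miR-29b-1-5p gave -0.20 ± 0.13 at 30 weeks (limma adjusted p = 0.346). With age without TRAMP it rose by 0.66 ± 0.13 (limma adjusted p = 0.000552, 11.1% called). miR-29b-2-5p rose with age without TRAMP too, by 0.46 ± 0.13 (limma adjusted p = 0.0167). The difference between the 2 strands in their TRAMP values was not tested. miR-29a-5p gave -0.58 ± 0.21 with TRAMP at 10 weeks (limma adjusted p = 0.0454) and -0.10 ± 0.21 at 30 weeks (limma adjusted p = 0.809). With age in the TRAMP mice none of the 4 strands passed, where 9.66% were called, though miR-29a-5p, at 0.50, passed without library 8 of KO-TRAMP, at 0.65 with a limma adjusted p of 0.0445. In the test by age miR-29b-1-5p passed, at -0.60 ± 0.18 (limma adjusted p = 0.0300, 10.4% called). These levels rest on few reads, and in library 35 the 1 read of miR-29b-1-5p was worth 1.53 RPM.

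The fit with no filter was repeated under the 3 other scalings, chosen after the data were seen, and without each library. The TRAMP calls of miR-29b-2-5p and miR-29c-5p passed in all of these at both ages. The call of miR-29b-1-5p with TRAMP at 10 weeks was lost without skeletal muscle miRNAs in the totals, at 0.29 with a limma adjusted p of 0.106. Under that scaling the age call of miR-29b-2-5p without TRAMP (0.32, limma adjusted p = 0.126) and the call of miR-29b-1-5p by age (-0.49, limma adjusted p = 0.0794) were lost too. The latter was also lost without library 1 of WT-TRAMP or 32 of KO at 10 weeks or library 26 of A537T at 30 weeks, at -0.56 to -0.55. The call of miR-29a-5p held in 6 of 18 fits that left out a library and in 1 of 3 other scalings, with values from -0.72 to -0.40. By age, miR-29b-2-5p passed with median-of-ratios scaling, at -0.61 with a limma adjusted p of 0.0197, and with TMM scaling, at -0.51 with a limma adjusted p of 0.0293.

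**Figure D5:**
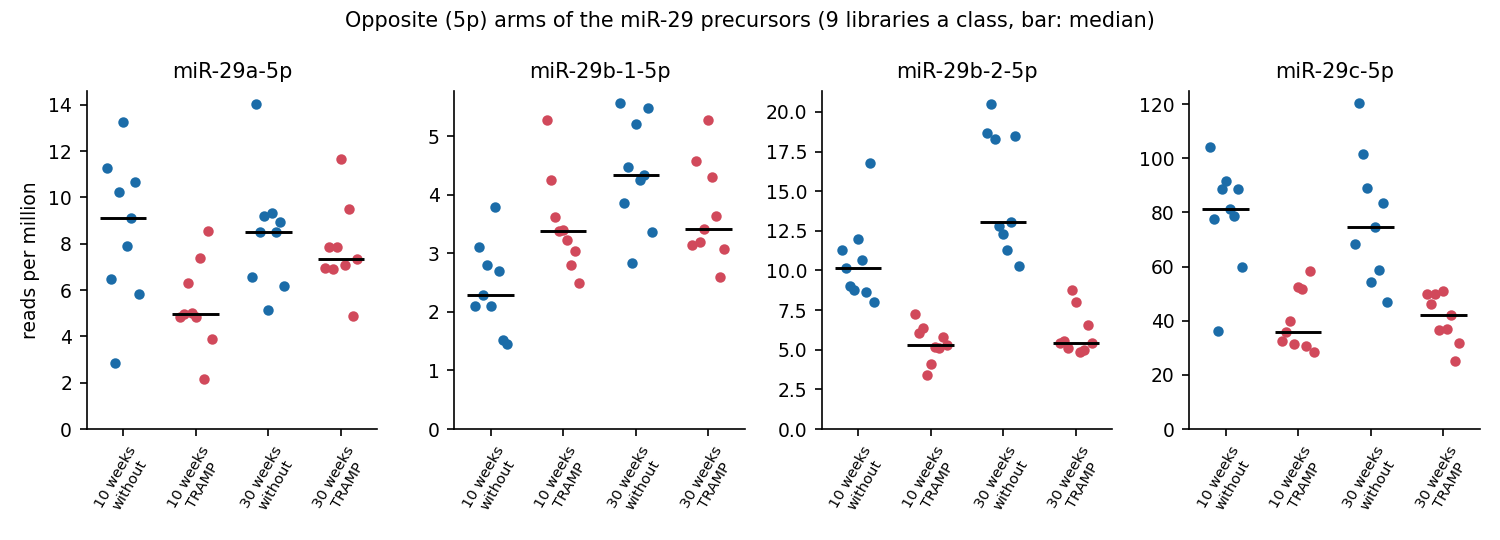
RPM (linear axis) of the 4 opposite strands in the 9 libraries of each class, with bars for medians. For miR-29b-2-5p the highest TRAMP library at 30 weeks, 8.77 RPM, is below the lowest library without TRAMP, 10.3 RPM, while the classes overlap for miR-29b-1-5p.

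Over the 12 group means of log2(RPM + 1), Pearson's r was 0.84 between miR-29a-3p and miR-29b-3p, 0.85 between miR-29a-3p and miR-29c-3p and 0.66 between miR-29b-3p and miR-29c-3p. Among the strands, miR-29c-3p had r = 0.85 with miR-29c-5p and 0.87 with miR-29b-2-5p, both of chromosome 1, and of chromosome 6 it had 0.82 with miR-29a-5p and 0.22 with miR-29b-1-5p. miR-29a-3p of chromosome 6 had r = 0.90 with miR-29b-2-5p and 0.69 with miR-29c-5p of chromosome 1. With miR-29a-5p and miR-29b-1-5p of its own cluster it had 0.63 and 0.52. These values of r did not follow the clusters throughout. The 5p strands of chromosome 6 and miR-29b-2-5p rest on few reads, and the effect of counting error on r was not tested. miR-29b-3p had r = 0.66 with miR-29b-1-5p and 0.64 with miR-29b-2-5p. These values describe 12 points that share libraries and totals.

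Of 159 other miRNAs with a mean of at least 100 RPM, those whose 12 group means were most like miR-29a-3p were miR-222-3p (r = 0.91), miR-221-3p (0.89), let-7e-5p (0.89), miR-1843a-5p (0.87) and miR-125a-5p (0.86). For miR-29b-3p they were miR-125a-5p (0.91), let-7e-5p (0.78), miR-125b-5p (0.78), miR-339-5p (0.75) and miR-99b-5p (0.74). For miR-29c-3p they were miR-34a-5p (0.92), miR-222-3p (0.89), let-7e-5p (0.88), miR-1839-5p (0.88) and miR-221-3p (0.88).

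Other miRNAs tied to fibrosis or matrix genes were given by counts from a list of 16, all of which were tested and 9 of which also stand on the cell marker lists used here. With TRAMP at 10 weeks 5 rose and 9 fell, or 87.5% called against 71.1% of all miRNAs, with a median of -0.67 against -0.23. The largest falls were miR-133a-3p, a muscle miRNA, at -3.94, and miR-34a-5p, known to be induced by p53, at -2.73. The largest rises were miR-21a-5p, raised in many fibrotic tissues, at 0.93, and miR-200a-3p, an epithelial miRNA, at 0.91. At 30 weeks 4 rose and 5 fell, 56.2% against 46.3% of all, with miR-101a-3p at 1.00 and miR-155-5p at 0.69 among the rises and miR-133a-3p at -1.56 and miR-34a-5p at -1.51 among the falls. With age 4 rose and 1 fell without TRAMP, or 31.2% against 37.2% of all, with miR-200b-3p at 0.66 and miR-21a-5p at 0.65 as the largest rises and miR-133a-3p at -3.47 the fall. With TRAMP 7 rose and 2 fell, or 56.2% against 29.2% of all, led by miR-155-5p at 1.68 and miR-34a-5p at 1.18, while miR-133a-3p fell by 1.09 and miR-26a-5p by 0.27. In the test by age 8 were positive and 4 negative, 12 of the 16 against 41.6% of all miRNAs. The largest of these were miR-133a-3p at 2.38 and miR-155-5p at 1.56, and miR-200c-3p at -0.96 and miR-200b-3p at -0.78. No called value of the list changed sign under the 3 other scalings. Without skeletal muscle miRNAs in the totals 3 rose and 10 fell with TRAMP at 10 weeks, 3 rose and 4 fell with age without TRAMP, and 9 were positive and 2 negative in the test by age. With median-of-ratios scaling 6 rose and 1 fell with age without TRAMP, 5 rose and 3 fell with age in the TRAMP mice, and 5 were positive and 4 negative in the test by age.

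Shares of cell type markers also differed between the classes. Marker miRNAs of stroma and smooth muscle took a median of 30.4% of reads without TRAMP at 10 weeks and 24.4% at 30 weeks. With TRAMP they took 11.4% and 14.3%. miR-143-3p made up 92.0% of this list's total, so the stromal share is mostly that of miR-143-3p. At 30 weeks the TRAMP value of miR-143-3p was -0.52 (limma adjusted p = 0.176) and that of miR-145a-5p -1.21 (limma adjusted p = 0.00427). The other listed stromal markers did not pass at 30 weeks, with miR-199a-5p at 0.15, miR-214-3p at 0.02 and miR-199ab-3p at -0.07. At 10 weeks every listed stromal marker was called lower with TRAMP, where 41.9% of tested miRNAs were lower. miR-143-3p stood at -0.95, miR-145a-5p at -1.43, miR-199a-5p at -0.64, miR-214-3p at -0.70 and miR-199ab-3p at -0.71. These calls held under the 3 other scalings. Markers of prostate epithelium took 5.27% and 8.03% without and 7.998% and 7.31% with TRAMP. Skeletal muscle markers stood out at 10 weeks without TRAMP, with a median of 8.34% and up to 30.6% in library 30 of WT, which was also the lowest of its class in all 3 members, and medians elsewhere were 0.313% to 0.501%. Endothelial markers took 1.44% and 1.19% without against 0.648% and 0.884% with TRAMP. Red cell markers took 0.158% and 0.0827% without against 0.0302% and 0.0413% with TRAMP, and white blood cell markers 0.0314% and 0.0407% against 0.0436% and 0.0918%. No marker of any list was at 0 in any library.

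Over the 36 libraries, r between the logarithms of a member and of the stromal share was 0.58 for miR-29c-3p, 0.30 for miR-29b-3p and 0.18 for miR-29a-3p. With the epithelial share r was -0.15, 0.32 and 0.30 in that order, and with the skeletal muscle share 0.0502, -0.39 and -0.13. For miR-29c-3p it was 0.54 with red cell and 0.45 with endothelial markers, against 0.0422 and 0.0428 for miR-29b-3p and 0.21 and 0.14 for miR-29a-3p. With white blood cell markers it was -0.16, 0.19 and -0.11 for miR-29c-3p, miR-29b-3p and miR-29a-3p. In KO-TRAMP at 30 weeks, library 17 had the highest stromal share of the TRAMP libraries, at 34.4%, and the lowest miR-29a-3p of all 36, at 5797 RPM. The part of tissue makeup in the differences of the family was not tested.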

How the data were processed

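The authors joined read pairs and trimmed adapters with BBMerge, counted miRNAs with mirDeep2 on GRCm38 and miRBase, and summed miRNAs of identical sequence. The deposited values of 8 tables are a signal, reads divided by a DESeq2 size factor, not raw counts. Whole reads were recovered for 100% of values (tolerance 0.001), and each library was then divided by its total to give RPM. Groups were read from the names of the tables, and a column in both the KO and the mutant table was taken as the control. "Mut" was read as A537T. The authors' own comparison tables (shrunken fold changes and s-values) and lists of merged names were not used. Columns with no group numbered 0. The tables carry no replicate number, so p-values measure the spread between these libraries, each described as a separate sample.

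limma 3.58.1 (variance trend, R 4.3.3) was fitted to log2(RPM + 1) in 1 fit of 36 libraries and 12 groups, for 298 miRNAs with a mean of at least 10 RPM, two-sided, with Benjamini-Hochberg adjustment within each contrast at 0.05. The scale understates changes of low miRNAs. Depth bounds counting error only. Alternatives were median-of-ratios and TMM factors, totals without muscle miRNAs, a pseudocount of 10, a filter at 100 RPM or none, only the libraries of a contrast, edgeR 4.0.16 and DESeq2 1.42.0 on the recovered reads, and each library left out. The fit was also run on simulated data, in which the most abundant miRNA took up all changes so that totals stayed fixed. That run could not test shifts of scale, and no result here rests on it. The named miRNAs were the 3 members, the 4 other strands, the 5 most like each member and up to 2 in each direction of the fibrosis list. Members, lists and comparisons were chosen with earlier results of these data known.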

Additional observations from a re-analysis of the deposited data

Results flagged for a closer look

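Averaged over the 3 lines, the TRAMP difference of miR-29a-3p changed with age by the test of the difference itself. The log2 value was -0.47 (30 minus 10 weeks) with a limma adjusted p of 0.0323. The averaged TRAMP value was -0.33 at 10 weeks and -0.80 at 30 weeks. In WT it went from -0.11 to -1.05 and in KO from -0.47 to -0.92, but in A537T it was -0.41 and -0.42. The call passed in 36 of 46 alternatives, and the values ran from -0.80 to -0.23. Of those 46, 36 left out 1 library, and 29 of these passed. Without the WT lines the call was lost, at -0.23 with a limma adjusted p of 0.402.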

How the results depend on the processing

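No paired analysis was possible because the columns of the tables carry no replicate number. All alternatives were refits of the same comparisons, and the cause of each change was not tested unless stated.

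With median-of-ratios scaling the TRAMP value of miR-29a-3p at 10 weeks was -0.13 and with TMM scaling -0.20, neither past the threshold. miR-29b-3p turned there to 0.0913 and 0.019. The TRAMP effect by age became -0.64 and -0.54 for miR-29b-3p, which then passed, and -0.32 and -0.21 for miR-29c-3p, and miR-29c-3p with age without TRAMP passed at 0.44 with median-of-ratios. Without the WT lines, an alternative added after the data were seen, miR-29b-3p with TRAMP at 30 weeks was -0.27 and miR-29a-3p by age -0.23. miR-29a-3p by age was -0.31 without muscle miRNAs in the total and -0.47 with no filter (more miRNAs tested), neither past the threshold.

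In the mutant comparisons no alternative that used all libraries gave a call, and these signs turned. At 10 weeks miR-29a-3p became -0.13, -0.0797 and -0.18 in KO and -0.15, -0.14 and -0.18 in A537T with median-of-ratios, TMM and no muscle miRNAs, and -0.0118 in A537T with edgeR and DESeq2. miR-29c-3p in A537T became -0.0541 with edgeR and -0.0542 with DESeq2. With median-of-ratios and TMM, miR-29b-3p became 0.14 and 0.092 in KO-TRAMP and 0.15 and 0.21 in A537T-TRAMP, and miR-29c-3p 0.0166 and 0.0745 in A537T-TRAMP, where edgeR and DESeq2 gave 0.0423 and 0.0425 for miR-29b-3p. At 30 weeks TMM gave 0.0206 for miR-29b-3p in A537T and -0.0289 in KO-TRAMP.

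Leaving out each library in turn, miR-29a-3p by age ran from -0.55 to -0.39 and lost its call without 7 of 36 libraries. miR-29c-3p by age ran from -0.16 to 0.22. At 10 weeks KO against WT ran from -0.12 to 0.25 for miR-29a-3p, 0.13 to 0.68 for miR-29b-3p and 0.22 to 1.35 for miR-29c-3p, the latter 2 passing without library 28. A537T against WT ran from -0.21 to 0.16, -0.13 to 0.42 and -0.41 to 0.73. KO-TRAMP against WT-TRAMP ran from -0.33 to 0.11 for miR-29b-3p, and A537T-TRAMP against WT-TRAMP from -0.29 to 0.13 for miR-29b-3p and -0.41 to 0.13 for miR-29c-3p. At 30 weeks A537T against WT ran from -0.25 to 0.28 for miR-29c-3p.

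With a mean of at least 100 RPM and with no filter, calls over all miRNAs were 116 and 405 for TRAMP at 10 weeks (212 as reported), 83 and 273 at 30 weeks (138), 68 and 175 for age without TRAMP (111) and 47 and 152 with TRAMP (87), and 65 by age with the stricter filter (124). KO against WT gave 17 calls at 10 weeks (0 to 28 with other settings) and 3 at 30 weeks (0 to 32), KO-TRAMP at 30 weeks 12 (0 to 65), and A537T 0 at 10 weeks (0 to 2) and 0 at 30 weeks (0 to 20, the most with TMM). Of the tests within 1 line, 9 passed as reported, 14 with median-of-ratios or TMM scaling and 5 with no filter. Uncalled member values given only as counts changed sign in 24 of 405 refits within lines and in 45 of 504 refits of interactions, none of them past the threshold, and 25 of the refits within lines passed. In 3 refits without library 28 of WT a KO interaction passed. Library 35 held 655455 reads and limits the strands near 1 read.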
